A study of Homo sapiens with 27 samples.

Results

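The genes described here are 48 core components of the spliceosome, chosen by name: every transcript in the 6 RM82 libraries whose GENCODE symbol is one of the 48 was taken, without regard to its counts. The list of 48 was itself drawn up with earlier results of these data known. All 48 were listed, with 433 transcripts, among 18776 genes with a count in at least 1 library. RM82 is an established human Ewing sarcoma cell line. Its cells were incubated for 24 h with SGC-CLK-1, an inhibitor of the CDC-like kinases, or with the solvent dimethylsulfoxide (DMSO) as the control, and their RNA was read as full-length cDNA on a nanopore sequencer with a unique molecular identifier (UMI) on each molecule. There were 3 libraries labelled SGC-CLK-1 and 3 labelled DMSO, all from this 1 line. The concentration of the inhibitor is not given in the sources used here, and the labels do not tie the 3 libraries of a group to separate cultures, although the study states in general that its experiments were repeated independently, so the p-values measure the spread between these libraries, which may be technical.

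The SGC-CLK-1 libraries held 666702, 362826 and 373004 UMI counts and the DMSO libraries 416352, 523456 and 372876. These are shallow libraries: DDX46, one of the genes below, had 441 counts over all 6. Levels are given as CPM, counts scaled to a common library size. Of a fixed list of 12 Ewing sarcoma markers, 10 were listed, and FLI1 and NKX2-2 were not. Their summed count was 1733 to 2762 per library, most of it from CAV1, with 1096 to 2064 counts. Over all 6 libraries NR0B1, LIPI, PRKCB and GLI1 had only 20, 31, 55 and 18 counts. EWSR1, STEAP1, CD99, BCL11B and CCND1 had 221 to 1464. Markers of the other lines of the study were near 0, with 0 to 10 counts per library over 8 myeloma genes, of which 2 were listed, and 1 to 9 over 7 T cell genes, of which 4 were listed. The 5 fibroblast genes summed to 16 to 50 counts, of which DCN had 6 to 39. Some markers differed between the groups. The T cell gene CD3G had 2, 1 and 1 counts with SGC-CLK-1 and 6, 8 and 6 with DMSO. The Ewing sarcoma marker GLI1 had 7, 4 and 7 against 0, 0 and 0. EWSR1 was higher and CCND1 lower in every SGC-CLK-1 library, at log2 fold changes of 0.55 and -0.45, each with an adjusted p of 0.32 (edgeR).

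The spliceosome removes introns. The U1 particle pairs with the start of the intron, SF1 and the U2AF pair mark the branch point and the end of the intron, and U2 with its SF3A and SF3B complexes takes over the branch point. The U4/U6.U5 particle then joins, and the PRPF proteins, helicases and the PRPF19 complex rearrange the assembly into its active form. CDC-like kinases phosphorylate SR proteins, which bind exons and help these particles to assemble, and several genes of the speckle group below encode proteins rich in arginine and serine. Many splicing factor genes also make transcripts in which an extra exon or a retained intron brings an early stop codon, and such RNAs are targets of nonsense-mediated decay.

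Exons of some transcripts discussed below are shown first, so that their values can be read beside the sequence. The first 4 are exons that carry the early stop codon of a transcript annotated for nonsense-mediated decay. Of these transcripts, RBM25-207 passed the threshold of the transcript test, and LUC7L3-205, SNRPB-203 and DDX46-207 did not pass any test adjusted over all features. The sequences are from GRCh38 on the strand of the gene, and each begins with the last 20 bases of the intron in lower case and continues in capitals with the exon up to and including the annotated stop codon.
RBM25-207: tgttggtttgcttgttccagGTTGGGATGA
LUC7L3-205: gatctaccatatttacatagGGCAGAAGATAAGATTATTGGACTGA
SNRPB-203: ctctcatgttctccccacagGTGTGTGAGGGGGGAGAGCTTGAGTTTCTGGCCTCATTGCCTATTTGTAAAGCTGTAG
DDX46-207: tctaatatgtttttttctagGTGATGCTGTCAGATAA

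The RBM25 window lies at chr14:73088350-73088379 on the plus strand, and its 105-base exon adds 7 coding bases before TGA. The LUC7L3 window lies at chr17:50749199-50749244 on the plus strand, in a 126-base exon with 23 coding bases before TGA. The SNRPB window lies at chr20:2467258-2467335 on the minus strand, in a 124-base exon with 55 coding bases before TAG. The DDX46 window lies at chr5:134790086-134790122 on the plus strand, in a 117-base exon with 14 coding bases before TAA.

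U2AF1 has a pair of alternative coding exons of 67 bases each, which distinguish the transcripts U2AF1-201 and U2AF1-202, and the decay-annotated U2AF1-205 contains both. They are shown because the counts of U2AF1 split between them. Capitals mark the exon, and 10 intron bases stand on each side.
U2AF1-201: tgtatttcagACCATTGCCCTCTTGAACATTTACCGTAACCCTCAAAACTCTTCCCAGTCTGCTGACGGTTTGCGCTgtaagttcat
U2AF1-202: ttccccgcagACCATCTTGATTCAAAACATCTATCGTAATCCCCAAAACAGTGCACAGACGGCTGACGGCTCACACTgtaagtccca

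The first lies at chr21:43100443-43100529 and the second at chr21:43101356-43101442, both on the minus strand. The exons are identical at 44 of 67 positions (65.7%).

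For the gene sums, all transcripts of a gene were added, and 41 of the 48 genes had enough counts to be tested. None passed an adjusted p of 0.05 (edgeR quasi-likelihood test, Benjamini-Hochberg over 6344 genes), where 0.236% of all genes tested did. At an unadjusted p under 0.05 there were 7 of 41, or 17.1%, beside 13.9% of all genes. DESeq2 on the same genes called 4 of the 41, LUC7L3, RBM25, SF1 and SNRPB, all lower with SGC-CLK-1, against a background of 1.69%. The log2 fold change was below 0 for 25 of 41 genes, or 61%, beside 50.1% of all genes, and above 0 for 16, with a median of -0.15 beside -0.0012 for all genes tested. Without DMSO replicate 3 that median was -0.014. The 2 groups did not overlap for 4 genes that were lower with SGC-CLK-1 (9.76%, background 9.71%) and for 3 that were higher (7.32%, background 10%), shares near or below those of all genes tested. Because every CPM is a share of a library, less RNA from a gene and more RNA from other genes cannot be told apart here, nor can fewer cells of a kind and less RNA per cell.

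**Figure D1:**
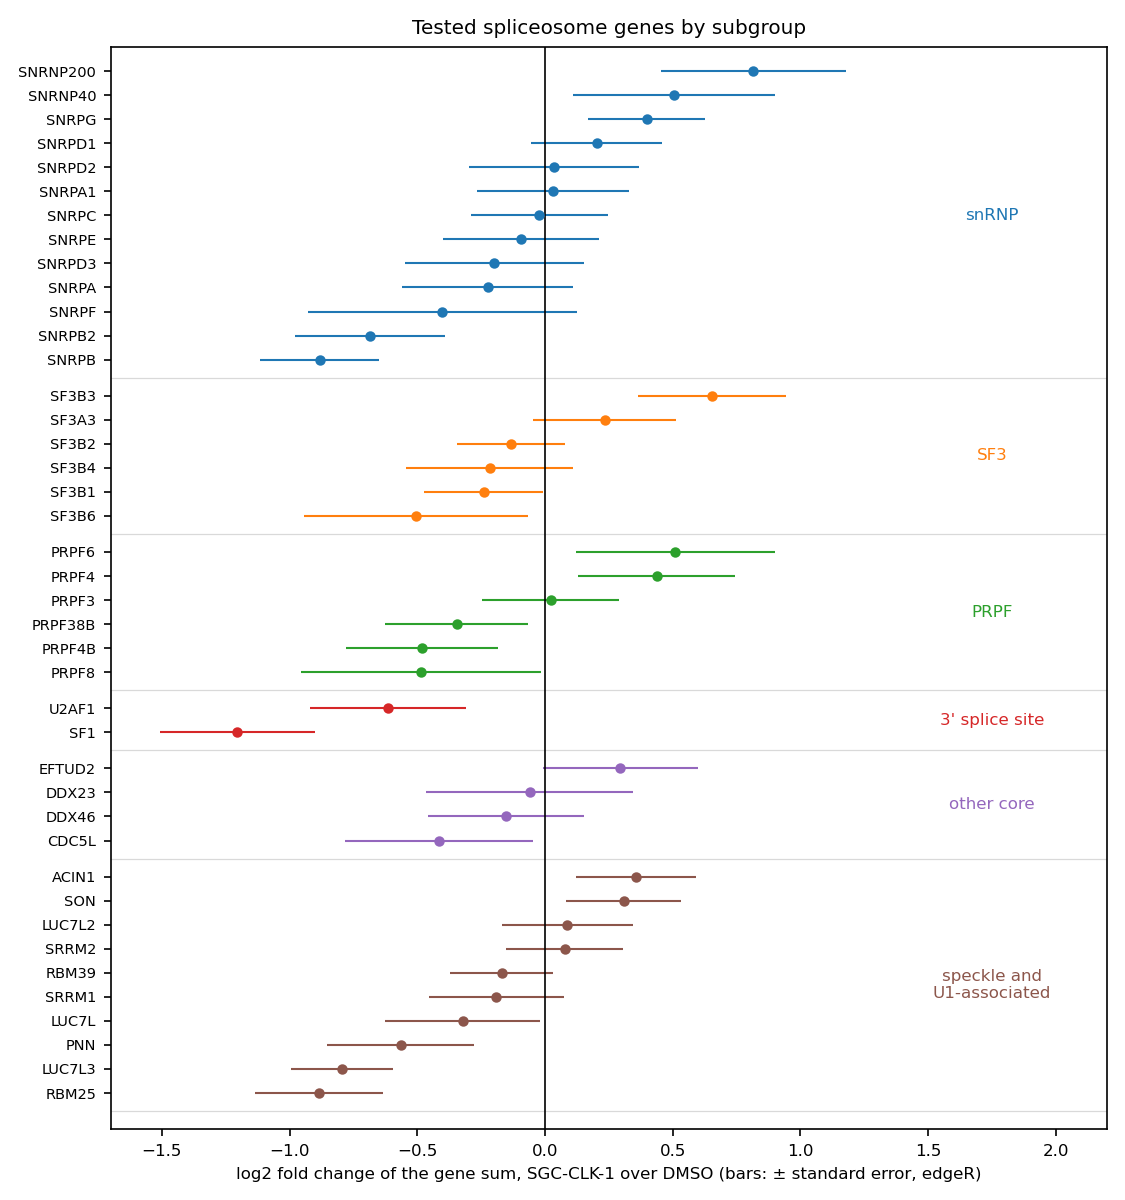
Log2 fold change of the gene sum (horizontal axis, SGC-CLK-1 over DMSO) with its standard error for the 41 genes tested, grouped by role. Most bars cross or come near 0; SF1 at -1.20 lies farthest to the left and SNRNP200 at 0.82 farthest to the right.

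The 7 genes with too few counts to test were SNRNP70 of U1, SF3A1, SF3A2 and SF3B5 of the SF3 complexes, PRPF19 and PRPF31, and U2AF2. PRPF19, the ubiquitin ligase of the complex named after it, and SF3A1, a structural subunit of U2, had 19 counts each over the 6 libraries. SNRNP70 had 87, spread unevenly: 74.1, 9.37 and 60.7 CPM in the SGC-CLK-1 libraries and 8.40, 27.3 and 20.0 CPM in the DMSO libraries. By total count over the 6 libraries, RBM25 was the highest of the 48 genes with 2815. LUC7L3, SRRM1 and RBM39 followed with 1900, 1642 and 1540.

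Among the small nuclear ribonucleoprotein (snRNP) genes, 13 of 14 were tested, 7 lower and 6 higher, and the median log2 fold change was -0.02. SNRPB and SNRNP200 were at the ends of this group. SNRPB encodes SmB, a subunit of the ring of Sm proteins that sits on most spliceosomal RNAs. Its gene sum was 234, 200.0 and 161 CPM in the SGC-CLK-1 libraries and 454, 316 and 336 CPM in the DMSO libraries. All 3 treated libraries were below all 3 controls, with a log2 fold change of -0.88 ± 0.23 (SE) and an adjusted p of 0.10 (edgeR). SNRPN, which encodes a protein nearly identical to SmB and was looked up after these values were seen, was at -0.09 ± 0.30 (SE), and molecules that align to both genes could be counted on either.

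SNRNP200 encodes the helicase that unwinds U4 from U6. Its gene sum was 140, 112 and 88.0 CPM with SGC-CLK-1 and 53.2, 100.1 and 36.7 CPM with DMSO. The groups overlapped through DMSO replicate 2, and the log2 fold change was 0.82 ± 0.36 (SE), with an adjusted p of 0.34 (edgeR). It was 1.33 without DMSO replicate 2, 0.56 without DMSO replicate 3 and 0.62 without SGC-CLK-1 replicate 1. SNRPB2, the U2 protein B″, was 112, 65.6 and 140 CPM with SGC-CLK-1 and 176, 146 and 193 CPM with DMSO, so the treated libraries were all lower, at -0.69 ± 0.29 (SE) and an adjusted p of 0.31. The other U2 protein of the group, SNRPA1, was at 0.03, and the U1 proteins SNRPA and SNRPC were at -0.22 and -0.02. The other Sm genes lay on both sides of 0: SNRPD1, SNRPD2 and SNRPG were at 0.20, 0.03 and 0.40, and SNRPD3, SNRPE and SNRPF at -0.20, -0.09 and -0.40. SNRPG was above the controls in all 3 treated libraries. SNRNP40, a U5 protein, was at 0.51 ± 0.39 (SE). The summed level of the 13 genes was 1593 ± 64.8 CPM (SD) with SGC-CLK-1 and 1723 ± 202 CPM (SD) with DMSO.

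The SF3 genes encode the complexes that hold the branch point for U2. Of 9 genes 6 were tested, with 4 lower and 2 higher and a median log2 fold change of -0.18. The highest was SF3B3, a scaffold subunit of SF3B, at 169, 191 and 118 CPM with SGC-CLK-1 and 72.8, 121 and 110 CPM with DMSO. Only SGC-CLK-1 replicate 3 lay within the range of the controls, and the log2 fold change was 0.65 ± 0.29 (SE) with an adjusted p of 0.33 (edgeR). The lowest was SF3B6, the subunit that contacts the branch point adenosine, at 36.2, 31.2 and 33.4 CPM with SGC-CLK-1 and 42.0, 31.9 and 73.3 CPM with DMSO. Its groups overlapped, and its value of -0.51 ± 0.44 (SE) was -0.12 without DMSO replicate 3, the one library well above the others. SF3B1, the subunit most often mutated in blood cancers, was at -0.24 ± 0.23 (SE), SF3B2 at -0.13, SF3B4 at -0.22 and SF3A3 at 0.23.

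The PRPF genes, most of them of the U4/U6.U5 particle, divided evenly: 3 of the 6 tested were lower and 3 higher, with a median of -0.16. PRPF6, a bridge between the U5 and U4/U6 parts, was highest at 43.1, 56.2 and 54.6 CPM with SGC-CLK-1 and 39.2, 34.1 and 33.3 CPM with DMSO. All treated libraries were above the controls by a small margin (0.51 ± 0.39, SE; adjusted p = 0.62, edgeR). PRPF4, a U4/U6 protein, was likewise higher in every treated library, at 0.44 ± 0.31 (SE). PRPF8, the large protein around the active site, was the lowest at 43.1, 40.6 and 21.2 CPM with SGC-CLK-1 and 33.6, 79.6 and 33.3 CPM with DMSO. DMSO replicate 2 alone was high; the log2 fold change was -0.49 ± 0.47 (SE) and turned to 0.084 without that library, and it was -0.26 without SGC-CLK-1 replicate 3. The kinase PRPF4B was at -0.48 ± 0.30 (SE), PRPF38B at -0.35 ± 0.28 (SE) and PRPF3, of U4/U6, at 0.02.

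The genes for recognition of the 3′ splice site had the lowest median, -0.91, but it comes from 2 genes, SF1 and U2AF1, since U2AF2, which binds the polypyrimidine tract, had 32 counts in all. SF1 binds the branch point before U2 does. Its gene sum was 87.9, 112 and 103 CPM with SGC-CLK-1 and 344, 171 and 180 CPM with DMSO. The treated libraries were all below the controls and DMSO replicate 1 was far above the other two, with a log2 fold change of -1.20 ± 0.30 (SE), 2.30-fold lower, and an adjusted p of 0.091 (edgeR). Without DMSO replicate 1 the log2 fold change was -0.81. U2AF1 reads the AG at the end of the intron and was at 286, 300.0 and 167 CPM with SGC-CLK-1 and 364, 234 and 570 CPM with DMSO. Its groups overlapped (-0.61 ± 0.31, SE; adjusted p = 0.39), and the value was -0.25 without DMSO replicate 3, the highest library, and -0.88 without DMSO replicate 2.

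Of the other core genes, all 4 were tested and the median was -0.11. EFTUD2, the GTPase of U5, was highest at 112, 131 and 164 CPM with SGC-CLK-1 and 95.2, 152 and 76.6 CPM with DMSO. CDC5L, a protein of the PRPF19 complex, was lowest at 89.6, 50.0 and 63.7 CPM with SGC-CLK-1 and 70.0, 68.3 and 143 CPM with DMSO. Both pairs of groups overlapped, at 0.29 ± 0.30 (SE) and -0.41 ± 0.37 (SE). With a library left out EFTUD2 ranged from 0.10, without DMSO replicate 3, to 0.64, without DMSO replicate 2, and CDC5L from -0.70, without SGC-CLK-1 replicate 1, to -0.0032, without DMSO replicate 3. The helicases DDX23 and DDX46 were at -0.06 and -0.15.

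The 10 speckle and U1-associated genes were all tested, 6 lower and 4 higher, with a median log2 fold change of -0.18. Their summed level was 4216 ± 435 CPM (SD) with SGC-CLK-1 and 5488 ± 876 CPM (SD) with DMSO. LUC7L3 and RBM25 were the lowest of them. LUC7L3 belongs to a family of U1-associated proteins that influence the choice of the 5′ splice site, and its gene sum was 677, 531 and 604 CPM with SGC-CLK-1 and 882, 1003 and 1273 CPM with DMSO. All treated libraries were below all controls, 1.74-fold on average (log2 fold change -0.80 ± 0.20, SE; adjusted p = 0.090, edgeR). Its relatives LUC7L and LUC7L2 were at -0.32 ± 0.30 (SE) and 0.09 ± 0.26 (SE).

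RBM25, an RNA-binding protein of speckles that also binds the U1-associated proteins, was at 1142, 794 and 640 CPM with SGC-CLK-1 and 1734, 1090 and 1962 CPM with DMSO. The highest treated library was just above the lowest control, DMSO replicate 2, and the log2 fold change was -0.88 ± 0.25 (SE) with an adjusted p of 0.12 (edgeR). ACIN1, a protein linked to the exon junction complex, was the highest of the group at 336, 325 and 234 CPM with SGC-CLK-1 and 280, 232 and 187 CPM with DMSO, and its groups overlapped (0.36 ± 0.24, SE; adjusted p = 0.54; 0.22 without DMSO replicate 3). SON, a large scaffold protein of the speckle, was at 0.31 ± 0.23 (SE), and its partner SRRM2 at 0.08 ± 0.23 (SE). SRRM1 was at -0.19, RBM39 at -0.17 and PNN, another speckle protein, at -0.57 ± 0.29 (SE).

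**Figure D2:**
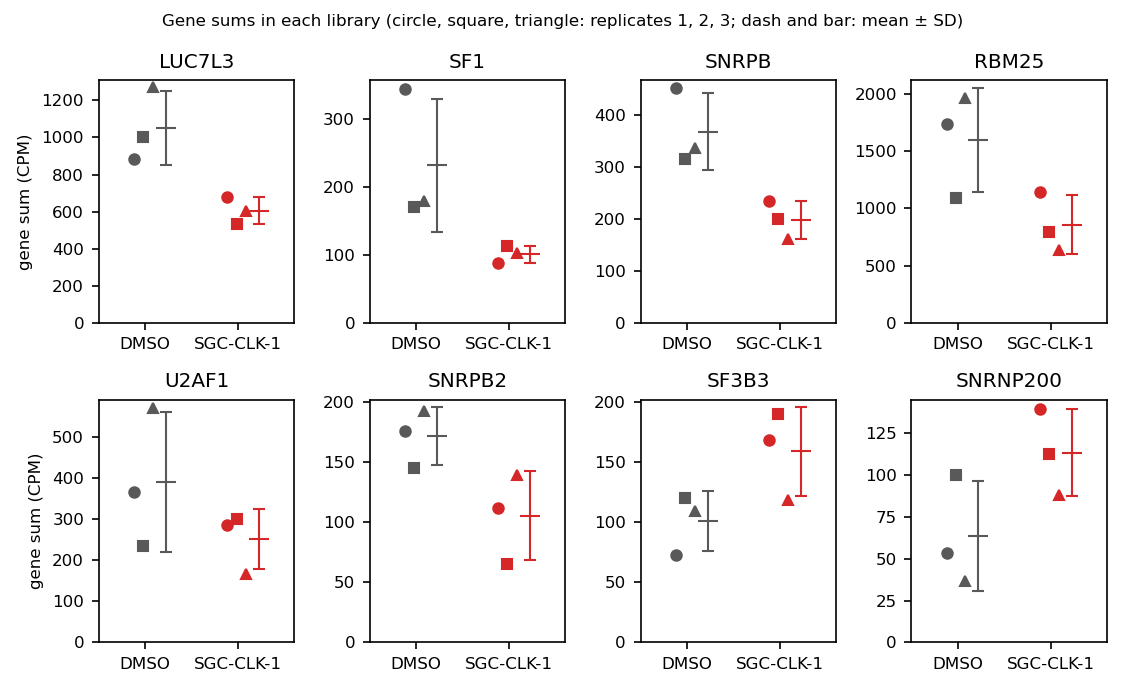
Gene sums in CPM (vertical axis from 0) in each of the 3 DMSO (grey) and 3 SGC-CLK-1 (red) libraries for 8 genes; the shape of a point is its replicate number, and the dash and bar are the mean and SD. The groups are apart for LUC7L3, SF1, SNRPB and SNRPB2 and overlap for RBM25, U2AF1, SF3B3 and SNRNP200.

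Set side by side, the snRNP, SF3 and PRPF groups had medians of -0.02, -0.18 and -0.16, and in each the members lay on both sides of 0, from -0.88 to 0.82 for snRNP, -0.51 to 0.65 for SF3 and -0.49 to 0.51 for PRPF. Leaving out 1 library moved several medians across 0: the snRNP median was 0.20 without DMSO replicate 3, the PRPF median 0.18 without DMSO replicate 2, and the medians of the other core and the speckle groups 0.049 and 0.0084 without DMSO replicate 3. The SF3 median stayed between -0.23 and -0.09 and the 3′ splice site median between -1.14 and -0.74 over the 6 fits that each left out a library. No test of a difference between subgroups was made.

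The same question was asked of single transcripts, of which 91, from 36 genes, had enough counts. Here 6 of 91, or 6.59%, passed an adjusted p of 0.05 (edgeR, over 7840 transcripts), beside 3.95% of all transcripts. All 6 fell, beside 2.1% of all transcripts called in that direction. They belong to 3 genes: LUC7L3-201, LUC7L3-202, SNRPB-201, RBM25-201, RBM25-205 and RBM25-207. At an unadjusted p under 0.05 there were 17 of 91 (18.7%, background 18%), 12 lower and 5 higher. A molecule could be counted on more than 1 transcript of its gene, so transcripts of 1 gene are not separate evidence.

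LUC7L3-201, a protein-coding transcript of 11 exons, was at 198, 203 and 202 CPM with SGC-CLK-1 and 334, 355 and 393 CPM with DMSO. It fell by 0.84 ± 0.21 (SE) on the log2 scale (adjusted p = 0.020, edgeR), with the treated libraries close together and all below the controls. LUC7L3-202, the coding transcript next to it, was at 148, 111 and 144 CPM with SGC-CLK-1 and 203, 238 and 320 CPM with DMSO. LUC7L3-202 fell by 0.89 ± 0.24 (SE), with an adjusted p of 0.029 (edgeR). SNRPB-201, the main coding transcript of SNRPB, was at 179, 163 and 132 CPM with SGC-CLK-1 and 344, 269 and 243 CPM with DMSO. It fell by 0.84 ± 0.23 (SE; adjusted p = 0.033), again with no overlap of the groups.

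The 3 RBM25 transcripts fell by nearly equal amounts. RBM25-201 was at 392, 274 and 226 CPM with SGC-CLK-1 and 575, 363 and 628 CPM with DMSO. RBM25-205 was at 368, 246 and 195 CPM with SGC-CLK-1 and 555, 335 and 570 CPM with DMSO. RBM25-207, whose early stop codon is printed above, was at 292, 195 and 171 CPM with SGC-CLK-1 and 444, 261 and 528 CPM with DMSO. In each of the 3, SGC-CLK-1 replicate 1 was above DMSO replicate 2, so the groups overlapped. They fell by 0.78 ± 0.23, 0.82 ± 0.24 and 0.86 ± 0.25 (SE) on the log2 scale, with adjusted p of 0.049, 0.045 and 0.041 (edgeR). The decay-annotated transcript and both coding ones thus had nearly the same fold change.

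The next 2 transcripts by p-value did not pass. U2AF1-201 was at 120, 115 and 58.4 CPM with SGC-CLK-1 and 200, 119 and 227 CPM with DMSO (log2 fold change -0.84 ± 0.28, SE; adjusted p = 0.085, edgeR). The groups overlapped by a small margin at DMSO replicate 2. U2AF1-201 did pass without that library (adjusted p = 0.022, edgeR) and with a block for the replicate number (adjusted p = 0.048, edgeR). LUC7L3-208 was at 209, 159 and 175 CPM with SGC-CLK-1 and 220, 291 and 370 CPM with DMSO, all treated libraries below the controls (-0.68 ± 0.23, SE; adjusted p = 0.096).

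These calls sit near the threshold. Leaving out each library in turn gave between 0 and 10 calls: none without SGC-CLK-1 replicate 2, SGC-CLK-1 replicate 3 or DMSO replicate 1, then 2 without DMSO replicate 3, 3 without SGC-CLK-1 replicate 1 and 10 without DMSO replicate 2. DESeq2 called 2 of the 91 (background 1.44%), both of LUC7L3. The 8 transcripts named above kept their direction in every one of these fits.

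**Figure D3:**
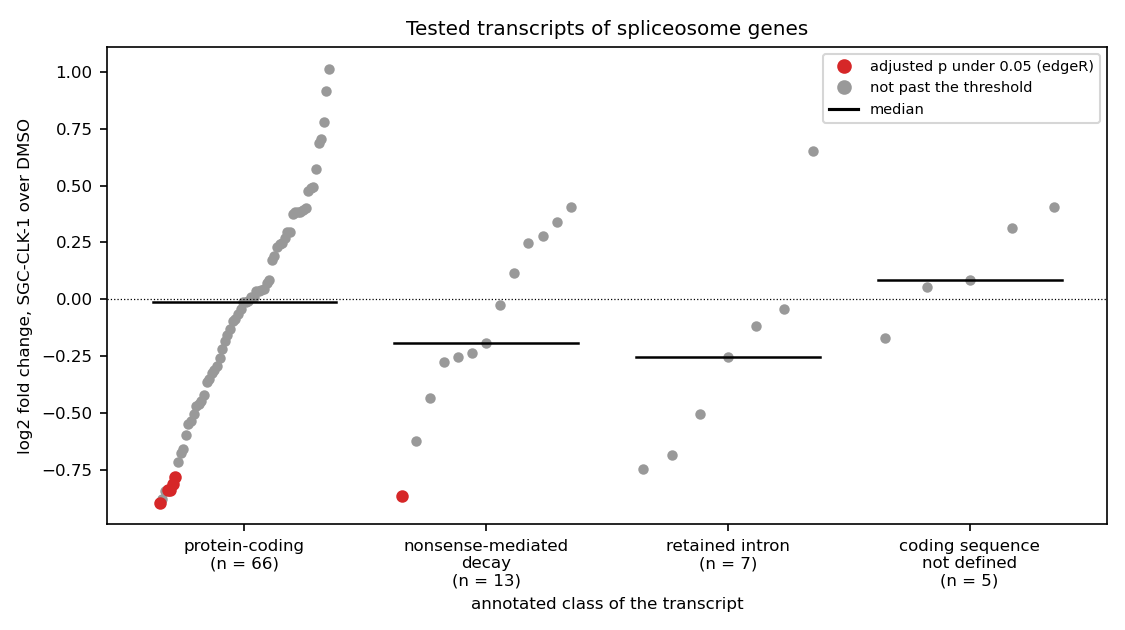
Log2 fold change (vertical axis, SGC-CLK-1 over DMSO) of the 91 tested transcripts, sorted within each annotated class (horizontal axis), with the 6 transcripts at an adjusted p under 0.05 in red and the class medians as black lines. The red points are 5 protein-coding transcripts and 1 decay-annotated transcript, all below 0.

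By annotated class, 66 of the tested transcripts were protein-coding, 35 lower and 31 higher with a median of -0.01. The 13 decay-annotated transcripts divided 8 lower and 5 higher, with a median of -0.19 beside 0.05 for the 568 such transcripts of all genes. The 7 retained-intron transcripts, 3 of which came from genes other than RBM39, divided 6 lower and 1 higher, with a median of -0.25 beside -0.01 for all 645. The 5 transcripts with no defined coding sequence divided 1 lower and 4 higher, with a median of 0.087 beside -0.0059 for all 295. The only retained-intron transcript above 0 was RBM39-223, at 67.6, 79.4 and 89.5 CPM with SGC-CLK-1 and 58.6, 52.7 and 34.7 CPM with DMSO, higher in every treated library (0.65 ± 0.31, SE; adjusted p = 0.27, edgeR). No retained-intron transcript passed the threshold, so no splice site of a retained intron is shown.

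Whether a gene shifted its counts from 1 transcript to another was tested as usage, with edgeR's diffSpliceDGE and a Simes p per gene, for 23 genes with at least 2 tested transcripts. None passed an adjusted p of 0.05, beside 0.277% of 1805 genes, and 1 of 23 (4.35%, background 1.72%) had an unadjusted p under 0.05. That gene was LUC7L3. Its decay-annotated transcript LUC7L3-205 was at 93.7, 31.8 and 50.6 CPM with SGC-CLK-1 and 55.1, 36.0 and 61.6 CPM with DMSO. The groups overlapped, while 3 coding transcripts of the gene were lower in every treated library, and its log2 fold change relative to the rest of the gene was 1.04. SGC-CLK-1 replicate 1, the deepest library, was the high one among the treated.

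In U2AF1, the transcripts with one or the other alternative exon were compared in the same way. U2AF1-202 was at 78.5, 87.4 and 46.7 CPM with SGC-CLK-1 and 82.7, 49.9 and 154 CPM with DMSO, and U2AF1-205, with both exons, was at 85.0, 83.4 and 70.0 CPM with SGC-CLK-1 and 99.9, 49.9 and 142 CPM with DMSO. Relative to the rest of the gene the log2 fold changes were -0.27, 0.21 and 0.34 for U2AF1-201, U2AF1-202 and U2AF1-205. None of the 3 had a p under 0.05 in the usage test. In SNRPB, the decay-annotated SNRPB-203 was at 43.6, 35.7 and 23.3 CPM with SGC-CLK-1 and 82.7, 38.8 and 46.2 CPM with DMSO, and at 0.18 relative to the rest of the gene.

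The non-coding share of a gene is the percent of its counts on transcripts of any class other than protein-coding, and it could be tested in 20 of the 48 genes. None passed an adjusted p of 0.05 (diffSpliceDGE on the 2 class sums), beside 0.0711% of 1406 genes, and none had an unadjusted p under 0.05, beside 1.21%. In this test and in the usage test, fewer genes overall had a p under 0.05 than no change at all would give. Both are conservative here, so the lack of calls in them says little. The non-coding share was higher in all 3 SGC-CLK-1 libraries than in all 3 DMSO libraries for 5 of the 20 genes, or 25%, beside 7.97% of all genes, and lower for 0, beside 7.54%. The 5 were DDX46, SNRPA1, U2AF1, LUC7L3 and SON.

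DDX46, a helicase that acts with U2 at the branch point, had the clearest separation. Its share was 36.0%, 33.9% and 35.5% with SGC-CLK-1 and 20.0%, 18.3% and 20.4% with DMSO, or 35.1% ± 1.07 against 19.6% ± 1.13 (SD, n = 3 each), on 441 counts of the gene in all. DDX46-207, with the TAA shown above, had 12, 8 and 15 counts with SGC-CLK-1 and 6, 8 and 13 with DMSO, and its CPM overlapped between the groups. DDX46-206, also annotated for decay, had 7, 5 and 5 counts with SGC-CLK-1 and 2, 1 and 1 with DMSO, and the retained-intron transcript DDX46-203 had 8, 4 and 4 against 0, 4 and 2. Both were higher in CPM in every treated library but had too few counts to be tested. The coding transcripts DDX46-201 and DDX46-202 were at log2 fold changes of -0.35 and -0.45.

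SNRPA1, the U2 protein A′, had a share of 60.3%, 53.1% and 64.5% with SGC-CLK-1 and 43.8%, 42.1% and 44.2% with DMSO, on 249 counts. U2AF1 was at 40.4%, 44.8% and 45.5% with SGC-CLK-1 and 33.8%, 34.0% and 36.3% with DMSO. LUC7L3 was at 31.0%, 25.9% and 26.6% with SGC-CLK-1 and 24.4%, 22.9% and 22.3% with DMSO. The differences in U2AF1 and LUC7L3 were smaller than in DDX46 and SNRPA1, though in both the treated libraries were all above the controls.

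SON was at 30.6%, 28.4% and 27.2% with SGC-CLK-1 and 22.4%, 25.9% and 27.2% with DMSO, where the nearest libraries of the groups all but met. In RBM25 the shares of the groups were nearly equal, at 43.1% ± 1.27 with SGC-CLK-1 and 43.2% ± 0.897 with DMSO (SD, n = 3 each). A test chosen after these shares were seen, limma on the log2 ratio of non-coding to coding counts, called none of the 20 genes and none of all 1406. At an unadjusted p under 0.05 it gave 4 of 20 (20%, background 11.5%), and DDX46 had the smallest adjusted p of the 20, 0.063, for a log2 ratio difference of 1.13 ± 0.14 (SE). The unadjusted p of DDX46 was 0.00013 in limma and 0.1 in diffSpliceDGE.

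**Figure D4:**
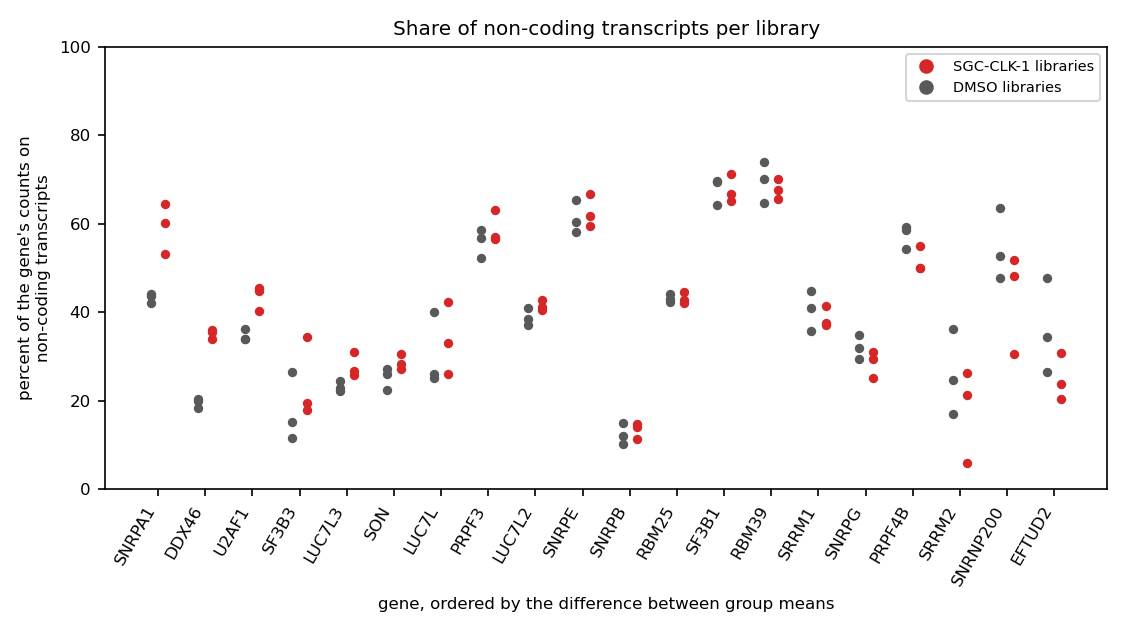
Percent of a gene's counts on transcripts annotated as other than protein-coding (vertical axis, 0 to 100) in each library, for the 20 genes tested, ordered by the difference between the group means; SGC-CLK-1 libraries are red and DMSO libraries grey. DDX46 has 3 red points between 33.9% and 36.0% above 3 grey points between 18.3% and 20.4%, and most other genes overlap.

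Over all 48 genes together, the protein-coding share of the counts was 67.7% ± 0.309 with SGC-CLK-1 and 68.6% ± 0.548 with DMSO (SD, n = 3 each), beside 75.7% ± 0.115 and 76.3% ± 0.148 for all genes. All genes include those with no coding transcript. For genes with protein-coding transcripts, a closer comparison, it was 78.4% ± 0.0787 and 78.9% ± 0.0531. In the 48 genes, transcripts with no defined coding sequence made up 7.99% ± 0.325 and 6.96% ± 0.75, decay-annotated transcripts 13.0% ± 0.403 and 13.6% ± 0.414, and retained introns 11.2% ± 0.0799 and 10.9% ± 0.837. For all genes the same 3 classes were at 4.74% ± 0.0575 and 4.50% ± 0.0433, 7.65% ± 0.0133 and 7.52% ± 0.0493, and 9.44% ± 0.0257 and 9.34% ± 0.137. In the 48 genes the libraries of the groups did not overlap in the protein-coding share and overlapped in the other 3 classes, while over all genes they overlapped in retained introns alone; no test of these shares was made. In the 48 genes each of these differences between the groups was about 1 percentage point or less.

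A second list held 71 other spliceosome genes outside the 48. Of the 48 of them that could be tested, 26 were lower and 22 higher, the median log2 fold change was -0.09, none passed the adjusted threshold and 6 had an unadjusted p under 0.05 (edgeR), a share below the 13.9% of all genes tested. Among those lower with SGC-CLK-1, ISY1 and SYF2, of complexes that join with PRPF19, were at -0.96 ± 0.35 (SE) and -1.09 ± 0.39 (SE). Both had an adjusted p of 0.22 (edgeR) and no overlap of the groups, as for 9.71% of all genes in that direction.

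In the other direction, DDX42, a helicase of U2, was at 79.2, 65.6 and 164 CPM with SGC-CLK-1 and 53.2, 34.1 and 26.7 CPM with DMSO. Its log2 fold change was 1.41 ± 0.42 (SE), with an adjusted p of 0.14 (edgeR). The value was 0.91 without SGC-CLK-1 replicate 3, the highest library. With no low-count filter DDX42 was called, at 1.42 and an adjusted p of 0.04 (edgeR). PRPF39, a U1-associated protein, was at 0.58 ± 0.28 (SE). SMN1, which assembles Sm rings, was at 0.96 ± 0.56 (SE), with 0.60 without DMSO replicate 1 and 1.85 without DMSO replicate 2, but it shares nearly all its sequence with SMN2 and its counts are uncertain. By group, the 5 tested genes of the LSM ring, which sits on U6, were all below 0 with a median of -0.21, and of 17 tested genes of the PRPF19 complex and the active spliceosome 11 were lower, with a median of -0.33. The 6 tested genes of the U4/U6.U5 particle on this list had a median of 0.06, with 2 lower and 4 higher. The 10 tested genes of U2 and early assembly divided 5 lower and 5 higher (median -0.098), and the 6 of snRNP assembly 2 lower and 4 higher (median 0.12). The helicases and the minor spliceosome had 2 tested genes each, with medians of 0.18 and 0.14.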

How the data were processed

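Counts of the 6 RM82 libraries were used, 1 table per library. The authors called bases with Guppy, aligned reads to human transcripts (hg38) with minimap2, keeping secondary alignments, and deposited deduplicated UMI counts per transcript, not normalized; whether UMI-tools or homotrimer collapsing made these tables is not given in the sources used here, and a molecule may be counted on several transcripts. Transcripts not listed were taken as 0. Of 93530 transcript identifiers 86362 matched GENCODE 44, which gave symbols, classes and gene sums. In R 4.3.3, edgeR 4.0.16 was run with filterByExpr (minimum count 10, minimum total 15), TMM scaling and the quasi-likelihood F-test, adjusted over all features at 0.05; SEs were derived from the F statistic and the log2 fold change. CPM were scaled to the counts on tested features and TMM factors. limma 3.58.1 and DESeq2 1.42.0 served as alternatives; Python 3.11.15 made the tables. On simulated counts of 6274 genes, 84% of 200 genes changed 4-fold were recovered and 3.45% of the calls were wrong. The values were 85% and 5.56% for 7763 transcripts, and 70.5% and 0% for usage in 1781 genes, where the leading transcripts of a gene exchanged levels. For the non-coding share they were 70.5% and 0.704% in 1403 genes, and 92% and 2.65% in 1406 genes with limma. Each simulation used 1 common dispersion. A 4-fold change exceeds every gene-sum change of the tested members, so recovery at their sizes was not measured. The genes, subgroups and lists were chosen with earlier results of these data known. Per subgroup the highest and lowest gene, and all transcripts past the threshold or the 8 with the smallest p, were given in full; SNRPB2, SNRNP70, RBM39-223, DDX46-203, DDX46-206 and the genes of the non-coding share were named after their values were seen. Arginine-serine content of the proteins was not analysed here. One gene of the list of other spliceosome genes that the naming rule selects is not reported here.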

Additional observations from a re-analysis of the deposited data

How the results depend on the processing

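Shallow libraries limit these results: 7 genes and 342 transcripts could not be tested. The number of gene sums called was 0 under other scalings, a minimum of 10 counts in every library, protein-coding transcripts alone and every fit without a library, but 3 with no low-count filter (LUC7L3, RBM25 and SF1), 4 with DESeq2 and 3 with the most abundant transcript only (LUC7L3, RBM25 and SNRPB). The number of transcripts called was 6, and 3 by library size alone, 0 with no filter, 2 with DESeq2 and 0 to 10 with a library left out. Usage and non-coding share called none in any setting. The cause of these differences was not tested. PRPF8 was at -0.49 and between -0.70 and 0.084 with a library left out, above 0 only without DMSO replicate 2, the one reversal among the genes and transcripts named by rule.

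Over the fits without a library, the median was -0.15 to 0.20 for snRNP, -0.33 to 0.18 for PRPF, -0.21 to 0.049 for other core, -0.27 to 0.0084 for speckle and -0.21 to -0.014 for all 41 genes. The PRPF median was 0.072 with at least 10 counts in every library, and the other core median was -0.38 with protein-coding transcripts only and -0.40 with the most abundant transcript, which gave the speckle genes -0.025. The labels do not say what the replicate numbers mark, and 3 libraries per group cannot decide whether the numbers pair the libraries. The correlations of the deviations were positive but small for equal numbers, at 0.0639, 0.0243 and 0.0313. SGC-CLK-1 replicate 3 correlated slightly better with DMSO replicate 2, at 0.0358. With a replicate block 0 gene sums, 8 transcripts, 0 usage tests and 0 non-coding shares of the core components were called. Among all features tested, the block gave 36 gene sums and 427 transcripts, against 15 and 310 without it. The block gave 4 usage tests against 5, and 1 non-coding share in both.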
